A study of Mus musculus with 15 samples.

Results

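Dapl1, Tdrp, Tmie, Igfbp4, Sidt1, Ramp1, Atp1b1 and Actn1 are 8 genes transcribed in resting mouse T cells, and they were followed here through T cell activation and in T cell lymphomas. They were listed because they had been lower in the lymphomas than in normal T cells on these same arrays, so their lymphoma levels are described without a test. The 8 genes are 8 of 18193 named on the array, they are read by 24 of its 45101 probe sets, and all 8 were among the 11907 genes with enough signal to be tested. The genes were grouped under the name naive T cell genes silenced in lymphomas. As to the lymphomas, it held on these arrays for Dapl1, Tdrp and Tmie as almost no signal. It held for Igfbp4, Sidt1 and Actn1 as lower levels, for Atp1b1 in part, and not for Ramp1 by its brightest probe set. The labels call the normal cells resting or activated and do not say that any were naive.

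The study hybridised RNA of 15 samples, 1 array each. Of these, 9, written 1 to 9 below, were peripheral T cell lymphomas (mPTCL) that arose after p53KO T cells were injected into CD3KO mice of the C57BL/6 strain, and their cells had been sorted from the liver. Another 3 samples were T cells activated in vitro and 3 were resting T cells, both from p53 KO mice of C57Bl/6 background aged 5 weeks, sorted from liver or spleen. All 15 samples thus lacked p53. For the normal samples, the growth protocol speaks of p53-deficient mice given PBS or heat-killed Streptococcus pneumoniae every second week, and it does not say whether the donors of these T cells were among them. The labels do not give the sort markers, the activating agent or the number of animals, so that p-values measure the spread between these samples, which may be technical. CD3-deficient hosts keep their own B cells, NK cells and myeloid cells. Lymphomas and normal cells differ in host and in protocol labels, and these cannot be told apart from the difference between the groups. The labels do not say whether lymphomas and normal cells were processed together, so a difference in processing cannot be told apart from it either.

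A naive T cell is a resting cell that circulates through blood and lymphoid organs until it meets its antigen. Its programme includes homing receptors such as Ccr7 and transcription factors such as Lef1, Klf2 and Foxo1, and it is given up to a differing extent when the cell divides and becomes an effector or memory cell. The 8 genes are part of no single pathway. Dapl1 is a small relative of the death-associated protein Dap. Sidt1 is a membrane protein related to SID-1, which carries double-stranded RNA in Caenorhabditis elegans. Igfbp4 is a secreted protein that binds insulin-like growth factors and keeps them from their receptor. Ramp1 is a membrane partner of the receptor Calcrl, with which it forms the receptor for the neuropeptide CGRP. Atp1b1 is a beta subunit of the sodium-potassium pump, Actn1 is the actin cross-linker alpha-actinin 1, Tmie belongs to the mechanotransduction complex of inner ear hair cells, and Tdrp is named for testis development.

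The sequences at the start of 3 of the genes are shown because these genes mark the ends of the pattern. By their brightest probe sets, Dapl1 and Tmie were at the floor of the measurement in every lymphoma, and Ramp1 was not. Each line gives 250 bases before and 50 after the RefSeq start of the gene, from GRCm38.p6, 5′ to 3′ on the strand of the gene. Dapl1 is shown from chr2:59484403-59484702 on the plus strand, Tmie from chr9:110880024-110880323 on the minus strand and Ramp1 from chr1:91179572-91179871 on the plus strand. Capitals mark matches to 6 short motifs, searched on both strands and chosen with the sequences at hand, namely CTTTGA and CTTTGT for TCF/LEF factors, GTAAACA for FOXO, TGTGGT for RUNX, CCACCC for KLF and CGGAAG for ETS factors.
Dapl1: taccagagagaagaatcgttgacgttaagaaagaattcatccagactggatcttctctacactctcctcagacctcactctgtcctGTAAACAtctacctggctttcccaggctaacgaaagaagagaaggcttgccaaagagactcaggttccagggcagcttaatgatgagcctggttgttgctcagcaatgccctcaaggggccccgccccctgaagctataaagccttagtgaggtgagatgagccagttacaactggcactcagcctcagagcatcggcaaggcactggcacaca
Tmie: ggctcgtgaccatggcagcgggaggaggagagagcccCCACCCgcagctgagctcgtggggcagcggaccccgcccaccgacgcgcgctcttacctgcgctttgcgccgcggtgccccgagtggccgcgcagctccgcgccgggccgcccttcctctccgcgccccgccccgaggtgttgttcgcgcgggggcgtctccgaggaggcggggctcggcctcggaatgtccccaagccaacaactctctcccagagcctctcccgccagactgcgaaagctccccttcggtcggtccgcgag
Ramp1: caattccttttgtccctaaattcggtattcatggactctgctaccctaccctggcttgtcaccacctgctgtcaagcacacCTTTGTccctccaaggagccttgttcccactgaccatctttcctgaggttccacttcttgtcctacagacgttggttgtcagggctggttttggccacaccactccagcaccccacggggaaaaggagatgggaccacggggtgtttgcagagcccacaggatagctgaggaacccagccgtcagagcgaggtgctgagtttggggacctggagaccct
Dapl1 held the FOXO letters 164 bases before its start, Tmie the KLF letters at 213 bases and Ramp1 the CTTTGT letters at 169 bases. Of 32817 promoter windows of the same length, 3.65% held the FOXO letters, 31.5% the KLF letters and 18.7% the CTTTGT letters, and Atp1b1 also held the CTTTGT letters, 144 bases before its start. The other motifs had no match in the 7 genes with a window in the table, and each stood in 16.0% to 16.9% of all windows. The windows also differed in CpG pairs, with 39 in Tmie, 5 in Dapl1 and 6 in Ramp1 against a median of 7. As many CpG pairs as in Tmie stood in 4.45% of windows, and as many as in Dapl1 in 61.9%. Tmie thus had a window rich in CpG pairs and Dapl1 one near the middle of the range. A link between the windows and the lymphoma levels was not tested.

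Before the genes themselves, the arrays were compared. Lymphomas correlated with each other at 0.757 to 0.924 over the tested genes, activated samples at 0.970 to 0.974 and resting samples at 0.968 to 0.976. The 3′ to 5′ ratio of the actin control was 1.47 to 2.65 in lymphomas, 1.49 to 1.54 in activated and 1.26 to 1.498 in resting cells. That of the Gapdh control was 1.26 to 2.10 in lymphomas, 1.26 to 1.36 in activated and 1.86 to 2.21 in resting cells, so that activated and resting samples did not overlap in it, and its part in their comparison was not tested. The epsilon chain of CD3, Cd3e, had 51.4, 23.0 and 524 units of intensity in lymphomas 3, 4 and 5, against 1839 to 4965 in the other 6, 2098 to 2701 in activated and 2795 to 3099.6 in resting cells. General T cell markers were lower as a list, with a mean log2 level over 8 of 9 markers of 8.58 to 11.59 in lymphomas, 12.76 to 12.81 in activated and 12.89 to 13.10 in resting cells. Among them Cd3d, another CD3 chain, and Cd247, the zeta chain of the same receptor complex, were below all normal samples in all 9 lymphomas, at 393 to 7139 for Cd3d and 129 to 2706 for Cd247. By limma 4 of the 8 were called lower than in activated cells, where 8.47% of tested genes were, and 5 lower than in resting cells, where 7% were. Leaving out any 1 activated or resting sample brought each count to 2. Between lymphomas and normal samples this lower level went along with that of the 8 genes and of the naive list below. Among the lymphomas it did not do so throughout. Lymphoma 4 had the lowest marker mean, 8.58, but the highest naive list mean, 10.76, and 8.44 over the 8 genes. Lymphoma 7 had the highest marker mean, 11.59, with 9.34 and 7.18. Lymphoma 9 was low in all, at 9.41, 8.06 and 6.90. The part of the T cell marker level in the other 2 was not tested. Over 8 of 9 listed B cell markers on the array, the mean log2 level was 5.51 to 11.58 in lymphomas, 6.55 to 8.43 in activated and 8.11 to 8.69 in resting cells. Lymphomas 1 and 5 lay above every normal sample in it, with none of the 8 markers at the floor, and in lymphoma 6 there were 5 of the 8 at the floor. Over 9 of 11 neutrophil markers it was 5.66 to 12.02 in lymphomas, 5.72 to 6.04 in activated and 5.70 to 6.08 in resting cells, and it was highest in lymphomas 5, 4, 1 and 8. These are bulk samples, in which fewer cells of a type and less RNA per cell cannot be told apart.

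Dapl1, Tdrp and Tmie had almost no signal in the lymphomas. Levels are given as intensity, the deposited linear signal of a probe set, for which each array has been scaled to the same trimmed mean of 500. Values under 32 were set to 32, which is 5 on the log2 scale and is called the floor. Dapl1 had intensities of 3.95, 5.39 and 17.2 as the lowest, median and highest of the 9 lymphomas, against 1969, 586 and 1969 in the activated and 1807, 1752 and 2082 in the resting samples. All 9 lymphomas were at the floor, and activated sample 2 stood below the other 5 normal samples. Between log2 means the difference was at least 41.1-fold lower in lymphomas than in activated cells and at least 58.6-fold lower than in resting cells, a bound that is set by the floor.

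Tmie was likewise at the floor in all 9 lymphomas by its brightest probe set. Its intensities there were 1.49, 6.29 and 15.1 as lowest, median and highest in the lymphomas, against 1522, 1233 and 1108 in the activated and 2314, 2748 and 2497 in the resting samples. The 3 groups did not overlap, with activated cells between the others, and the lymphoma mean was at least 39.9-fold lower than in activated and at least 78.6-fold lower than in resting cells. The second Tmie probe set, 1443964_at, was at 3.84, 7.58 and 39.1 in the lymphomas, against 531, 546 and 563 in the activated and 1344, 986 and 1036 in the resting samples. Lymphoma 5 was the one array above the floor in it. The third, 1439838_a_at, was dim throughout, at 3.78, 17.8 and 60.2 in lymphomas, 107 to 249 in activated and 195 to 224 in resting cells, and there lymphomas were below all normal samples too.

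Tdrp has 1 probe set, which gave 3.38, 16.8 and 86.6 as lowest, median and highest of the lymphomas, against 1974, 1369 and 1838 in the activated and 3258, 4177 and 4176 in the resting samples. At the floor were 6 of 9 lymphomas, lymphomas 1 and 7 lay just above it at 35.4 and 35.9, and lymphoma 6 was the highest. No group overlapped another. The lymphoma mean was at least 46.6-fold lower than in activated and at least 105-fold lower than in resting cells.

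**Figure D1:**
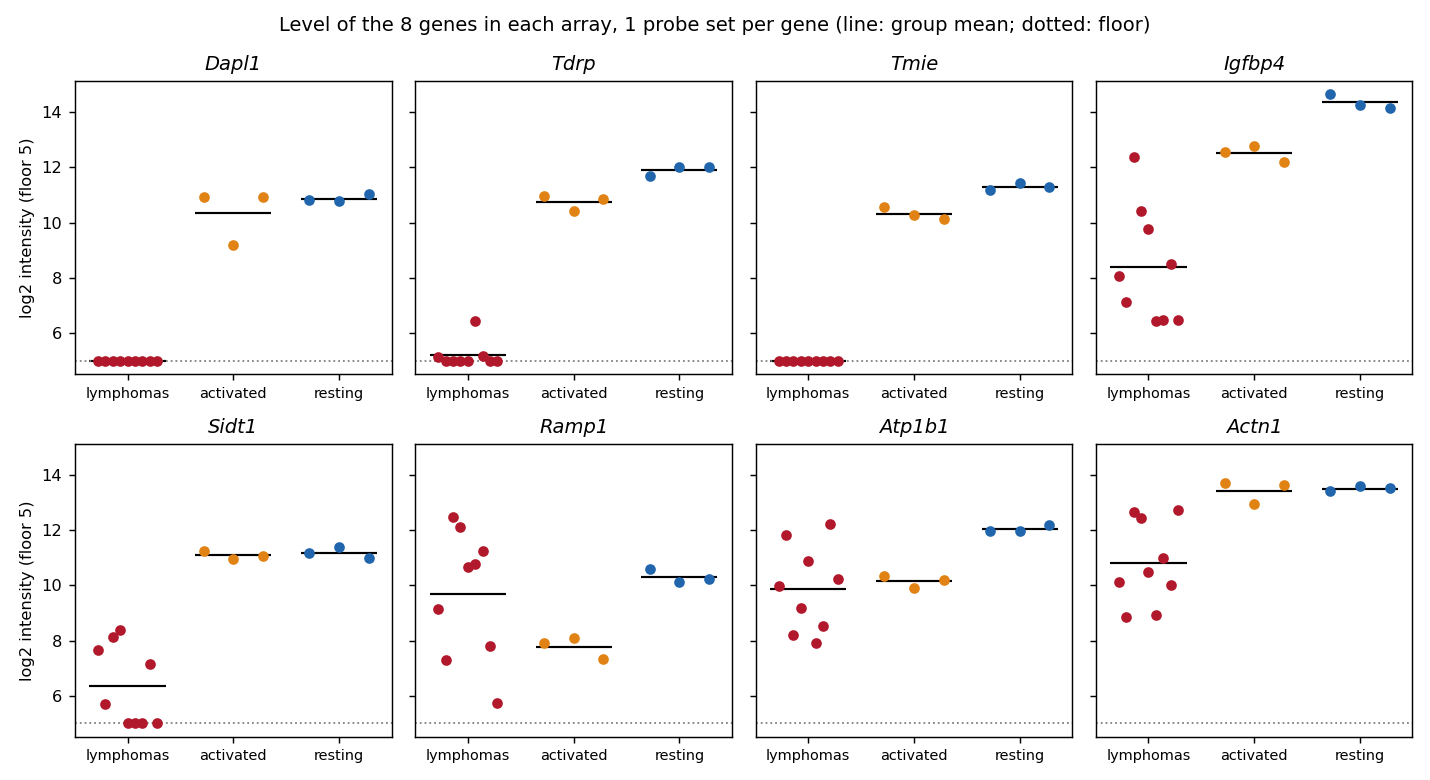
Log2 intensity of the brightest probe set of each of the 8 genes (y axis, floor 5) in 9 lymphomas, 3 activated and 3 resting T cell samples (x axis); points are arrays in the order of their numbers, lines are group means and the dotted line is the floor. Dapl1 and Tmie lie on the floor in every lymphoma, whereas 5 lymphomas lie above all resting samples for Ramp1.

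Igfbp4, Sidt1 and Actn1 were lower in lymphomas than in resting cells, and the lymphomas differed widely in what was left. Igfbp4 had intensities of 86.0, 267 and 5314 as lowest, median and highest of the lymphomas, against 6014, 6987 and 4727 in the activated and 25575, 19426.5 and 18274 in the resting samples. By this brightest probe set lymphoma 3 was the highest and reached the activated range, lymphomas 4 and 5 followed at 1374 and 879, and lymphomas 6, 7 and 9 lay at 86.0 to 89.2. The mean was 17.3-fold lower in lymphomas than in activated cells, and 61.7-fold lower than in resting cells. The other 5 Igfbp4 probe sets kept lymphomas below resting cells in every array, and their correlation with the brightest over 15 arrays was 0.73 to 1.00. Lymphoma 3 was in the activated range in 1437406_x_at too. In 1423757_x_at, 1423756_s_at and 1421992_a_at all 9 lymphomas were below every activated sample, with means 6.94-fold, at least 26.2-fold and 7.10-fold lower. In 1421991_a_at 2 of the 3 activated samples were themselves at the floor.

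Sidt1 had intensities of 4.46, 52.8 and 334 in the lymphomas, again as lowest, median and highest, against 2439, 1979 and 2149 in the activated and 2291, 2712 and 2018 in the resting samples. Lymphomas 5, 6, 7 and 9 were at the floor, and lymphomas 4 and 3 were the highest, at 334 and 283. Activated and resting samples overlapped. The lymphoma mean was at least 26.9-fold lower than in activated and at least 28.7-fold lower than in resting cells. The second Sidt1 probe set, 1426551_at, read 4.91, 36.4 and 134 in lymphomas, 343 to 495 in activated and 212 to 434 in resting cells.

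Actn1 had 464, 1435 and 6771 as the lowest, median and highest intensity of the lymphomas, against 13328, 7946 and 12628 in the activated and 10989, 12232 and 11625 in the resting samples. Lymphomas 9, 3 and 4 kept the most, at 6771, 6469.9 and 5558, and the other 6 lay at 464 to 2054. All 9 were below each normal sample, and activated and resting samples overlapped. The lymphoma mean was 6.16-fold lower than in activated and 6.49-fold lower than in resting cells. Its other 2 probe sets showed the same separation, with at least 13.7-fold and at least 14.9-fold lower means in lymphomas than in activated cells.

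Atp1b1 was low in some lymphomas and at the resting level in others. Its intensities were 239, 999.9 and 4769 as lowest, median and highest of the lymphomas, against 1297, 967 and 1161 in the activated and 3958, 3979.55 and 4618 in the resting samples. Lymphoma 8 was above every resting sample and lymphoma 2, at 3650.2, was close below them, whereas lymphomas 6, 3, 7 and 4 lay between 239 and 580, below all activated samples. Lymphomas and activated cells overlapped, with log2 means of 9.88 ± 1.56 (SD, n = 9) in lymphomas and 10.15 ± 0.21 (SD, n = 3) in activated cells. By the brightest probe set and over all 9 lymphomas, these 2 groups thus did not differ beyond their spread. In resting cells the log2 mean was 12.03 ± 0.13 (SD, n = 3), which was 4.43-fold above the lymphoma mean. Without the 6 lymphomas (1, 2, 4, 5, 8 and 9) whose neutrophil marker mean was over 2 log2 units above the highest normal sample, the difference from resting cells on the log2 scale was -3.81 in place of -2.15, as lymphomas 2 and 8 are among those 6. The difference from activated cells was then -1.93 in place of -0.27. Over 4 hepatocyte markers the mean log2 level was 8.60 in lymphoma 8. It was 5.06 to 5.88 in the other lymphomas and 5.29 to 5.86 in normal samples. Over 4 NK cell markers lymphomas 2 and 8 had the highest means, 12.04 and 10.70, against 8.53 to 9.24 in normal samples. Lymphoma 6, lowest in Atp1b1, was above these too, at 9.82. The part of these markers' cells in the Atp1b1 levels was not tested. One of the 5 Atp1b1 probe sets, 1455949_at, stayed under 100 in every array, at 5.98 to 82.1 in lymphomas, 10.9 to 90.4 in activated and 7.35 to 48.7 in resting cells, and its correlation with the brightest was -0.06. The other 3 followed the brightest at 0.96 to 0.98. Against activated cells the lymphoma mean was 1.04-fold lower in 1451152_a_at, 2.11-fold lower in 1418453_a_at and at least 2.50-fold lower in 1439036_a_at. Below every activated sample were 4, 6 and 6 of the 9 lymphomas in them, and above them all 3, 2 and 2. Lymphoma 8 was above all resting samples in 1 of these 3 probe sets and within the resting range in the other 2, at 1855 against 1272 to 2249 in 1418453_a_at and at 2413 against 1516 to 2557 in 1439036_a_at.

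By its brightest probe set, Ramp1 was not silenced. It had intensities of 53.4, 1626 and 5689.8 as lowest, median and highest of the lymphomas, against 242, 273 and 161 in the activated and 1549, 1099.85 and 1196 in the resting samples. Lymphomas 3, 4, 7, 6 and 5 lay above the highest resting sample, and lymphomas 1, 8, 2 and 9 lay below the lowest. On the log2 scale the mean was 9.69 ± 2.32 (SD, n = 9) in lymphomas, 7.78 ± 0.40 (SD, n = 3) in activated and 10.31 ± 0.26 (SD, n = 3) in resting cells. The lymphoma mean was thus 1.91 above that of activated cells and 0.61 below that of resting cells, each less than the SD among lymphomas. The sign of the difference from resting cells depended on which lymphomas were counted, at 1.19 over the 3 left without those 6 (3, 6 and 7) and -1.64 without the 3 of low Cd3e (3, 4 and 5). The other 2 Ramp1 probe sets were dim. One, 1447474_at, was at 72.5 to 229.6 in lymphomas, 140 to 188 in activated and 131 to 291 in resting cells, and the other, 1431413_at, at 7.71 to 164 in lymphomas, 12.1 to 105 in activated and 120 to 189 in resting cells. In each of them 7 of 9 lymphomas were below every resting sample and none exceeded them all, and their correlations with the brightest were 0.43 and 0.61. The high levels in 5 lymphomas thus rest on the brightest probe set.

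Counted over the 8 genes by their brightest probe sets, 6 had all 9 lymphomas below all resting samples, where 11.2% of all tested genes did so, and 5 had them below all activated samples, where 12.5% did. At least 4-fold lower means were found for 7 of 8 against resting cells, where 2.97% of tested genes had them, and for 6 of 8 against activated cells, where 3.75% had them. The genes were listed for these very differences, so the counts only describe the list. The median log2 difference over the 8 genes was -4.43 against activated and -5.36 against resting cells, beside -0.07 and -0.02 over all tested genes.

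**Figure D2:**
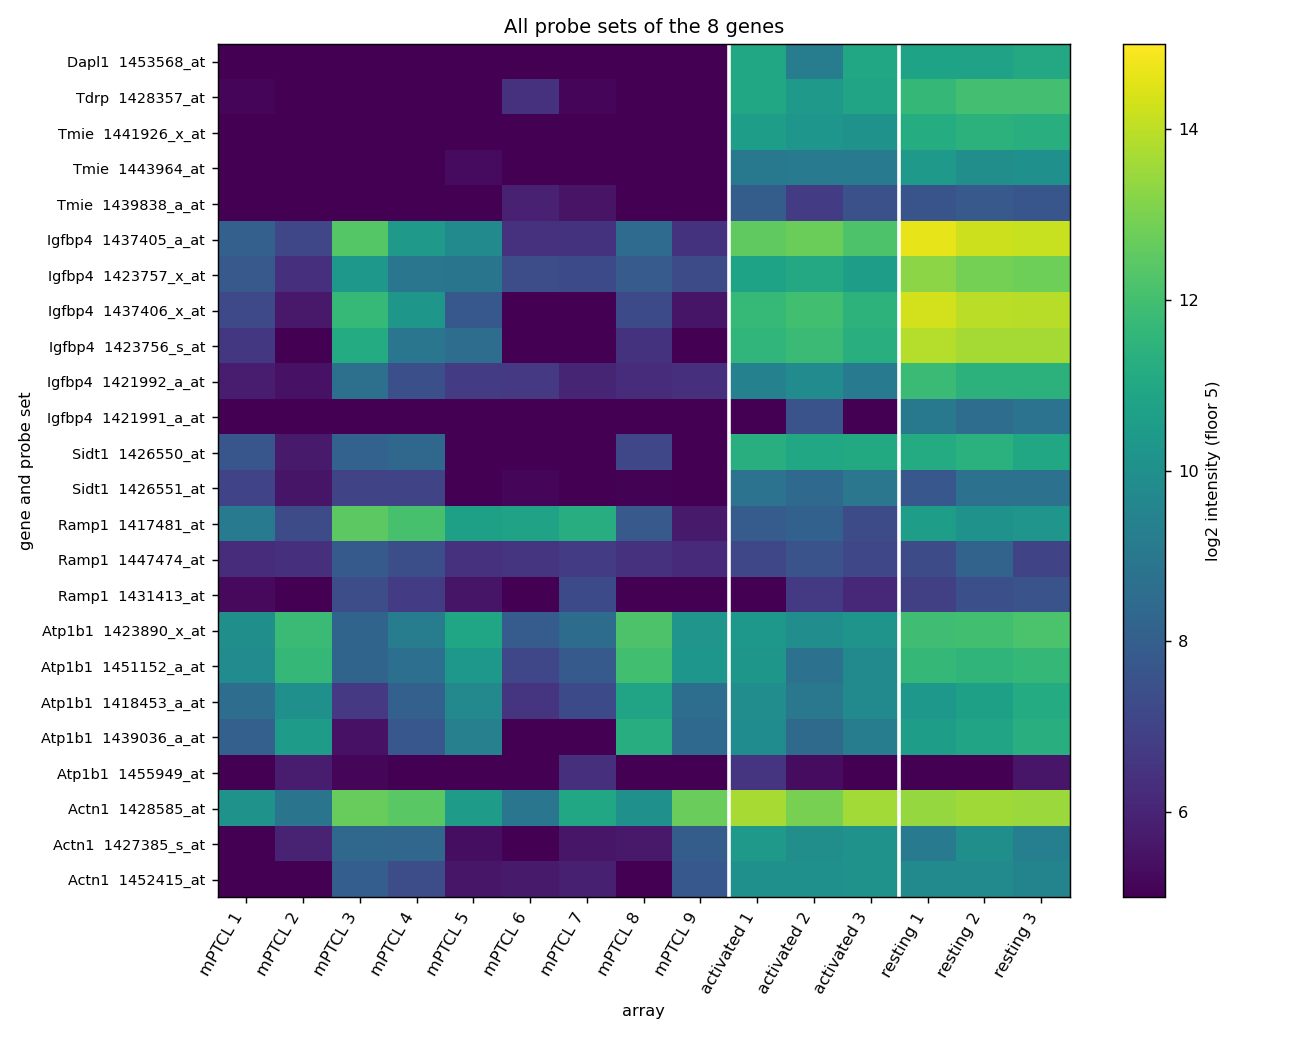
Log2 intensity (colour, floor 5) of all 24 probe sets of the 8 genes (rows, grouped by gene with the brightest first) in 9 lymphomas, 3 activated and 3 resting T cell samples (columns, from left). The rows of Dapl1, Tdrp and Tmie are dark across the lymphomas, and the brightest Ramp1 row is bright in lymphomas 3 to 7.

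The lymphomas were not alike in what they kept. The mean log2 level over the 8 genes was 6.90 to 8.61 in lymphomas, 10.57 to 11.03 in activated and 11.92 to 11.94 in resting cells. Lymphomas 3 and 4 had the highest means, 8.61 and 8.44, and held the highest Igfbp4, Sidt1 and Ramp1 levels together. These are 2 of the 3 lymphomas with low Cd3e. Lymphomas 9, 6 and 2 had the lowest means, 6.90 to 6.98.

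Among the 5 genes that varied in the lymphomas, all 10 pairs were correlated over the 9 arrays on the log2 scale, with 2-sided exact permutation tests. Ramp1 and Atp1b1 ran opposite to each other, with Pearson's r = -0.693 (exact permutation p = 0.0432, 0.216 after Benjamini-Hochberg adjustment over the pairs) and Spearman's rho = -0.733 (exact permutation p = 0.0311, adjusted 0.156). Leaving out lymphomas 2 and 9, the farthest from the median of Ramp1, gave r = -0.777, and leaving out any 1 lymphoma gave -0.835 to -0.626. With the other probe sets of both genes r was -0.728 to -0.474, except with 1455949_at of Atp1b1, where it was -0.0007 to 0.376. Igfbp4 and Sidt1 ran together, with r = 0.717 (exact permutation p = 0.0308, adjusted 0.216) and rho = 0.740 (exact permutation p = 0.0300, adjusted 0.156). Leaving out lymphomas 3 and 4, the farthest from the median of Igfbp4, gave r = 0.349, and leaving out lymphoma 5 with them, the 3 of low Cd3e, gave 0.956. It was 0.939 without lymphomas 1 and 5 and 0.626 to 0.880 without any 1 lymphoma, so that its size depended on which lymphomas were counted. Neither relation passed the adjustment, nor did any of the other 8 pairs.

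**Figure D3:**
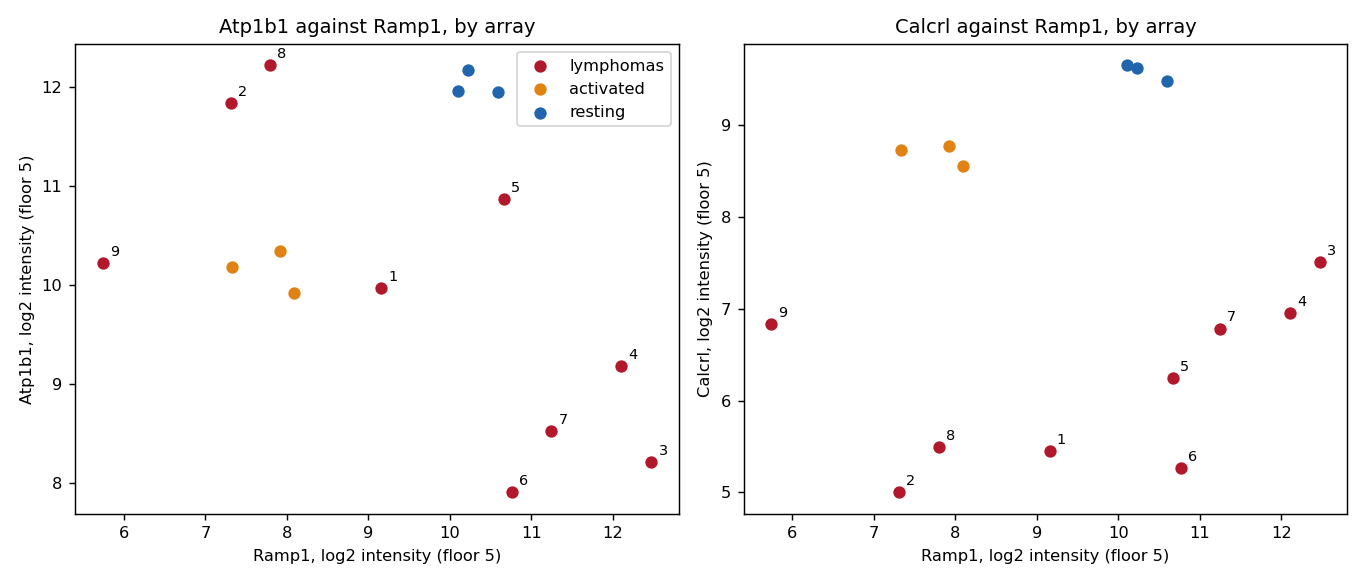
Log2 intensity (floor 5) of Atp1b1 (left, y axis) and of Calcrl (right, y axis) against that of Ramp1 (x axes), 1 point per array, with lymphomas numbered 1 to 9. Among lymphomas Atp1b1 tends to be higher where Ramp1 is lower (r = -0.693), a relation that did not pass adjustment over the 10 pairs (adjusted exact permutation p = 0.216). Calcrl is below all normal samples in each lymphoma, whether Ramp1 is high or low.

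The comparison of activated with resting T cells asks how far the genes are turned down in T cells activated in vitro that are not lymphomas. Igfbp4, Ramp1, Atp1b1 and Tdrp fell, whereas Dapl1, Sidt1 and Actn1 did not pass the test, and Tmie passed on p but not on size. This comparison did not choose the genes, but it shares its resting samples with the one that did. Tests were made with limma across all genes, 3 activated against 3 resting samples, and a call needed an adjusted p below 0.05 (Benjamini-Hochberg) together with a 2-fold or larger change. Called lower were 4 of the 8 genes, where 4.26% of the tested genes were called lower and 8.47% higher.

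By brightest probe sets Ramp1 had the largest fall among the 8 genes, with a log2 change of -2.53 ± 0.25 (SE, limma adjusted p = 0.00104), or 5.77-fold. Averaged over all probe sets of a gene, Ramp1 changed by -1.38 and Igfbp4 by -2.27, so that the order turned. Atp1b1 changed by -1.88 ± 0.13 on the log2 scale (limma adjusted p = 3.65e-04), or 3.68-fold. Igfbp4 changed by -1.84 ± 0.19 (limma adjusted p = 0.00119), or 3.58-fold, and every activated sample, at 4727 to 6987, stayed above 8 of the 9 lymphomas. Tdrp changed by -1.17 ± 0.17 (limma adjusted p = 0.00393), or 2.25-fold. Every activated sample was below every resting sample for these 4 genes and for Tmie, 5 of 8 genes in all, a pattern that 23.3% of the tested genes had. Tmie changed by -0.98 ± 0.14 (limma adjusted p = 0.00355), which is 1.97-fold and just under the size asked for, and it was called in fits with quantile normalisation or median centring.

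Dapl1 differed by -0.51 ± 0.47 (limma adjusted p = 0.445, 95% interval -1.64 to 0.61 on the log2 scale). Its value rests on activated sample 2, without which the difference was 0.07. Sidt1 differed by -0.09 ± 0.14 (limma adjusted p = 0.649, interval -0.42 to 0.24) and Actn1 by -0.07 ± 0.20 (limma adjusted p = 0.812, interval -0.56 to 0.41). These intervals, for the brightest probe sets only, leave out 2-fold changes for Sidt1 and Actn1, but not for Dapl1. Both signs depended on the probe sets, since averaging over all probe sets gave a difference of 0.11 for Sidt1 and 0.33 for Actn1. By their brightest probe sets Sidt1 and Actn1 were at the resting level in activated cells, and Dapl1 was at that level in 2 of 3 activated samples. These 3 genes were therefore lower in all 9 lymphomas without a measured fall on activation.

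The probe sets of a gene were also fitted one by one. Of 23 that passed the filter, 13 were called lower and 0 higher, by limma over 22364 probe sets, of which 3.84% were called lower. At an unadjusted p under 0.05, 2 further ones, both of Actn1, were higher. These were 1427385_s_at at 0.67 ± 0.25 (limma adjusted p = 0.0883) and 1452415_at at 0.38 ± 0.11 (limma adjusted p = 0.0472), each under 2-fold. The second Sidt1 probe set, 1426551_at, was at 0.31 ± 0.32 (limma adjusted p = 0.515). All 6 Igfbp4 probe sets were called, with log2 changes of -2.95 to -1.84, and all 4 of Atp1b1, with changes of -2.02 to -1.16. Of the 3 Ramp1 probe sets 1 was called, and of the 3 Tmie probe sets 1, which was 1443964_at at -1.02 ± 0.14 (limma adjusted p = 0.00378).

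These calls stood or fell with the samples that set the spread. When all 15 arrays shared 1 fit, in which the spread among lymphomas enters, none of the 8 genes was called by limma, and 2 were lower at an unadjusted p under 0.05, with adjusted p of 0.109 for Tdrp, 0.349 for Atp1b1, 0.410 for Ramp1 and 0.542 for Igfbp4. Median centring gave a median log2 change of all tested genes of -0.26, against 0.02 as deposited, and the share of lower calls among all calls was then 61.0%, against 33.5%. Markers of other cells changed in this comparison too. By limma 6 of 9 tested macrophage markers were called lower in activated cells, where 4.26% of tested genes were. Of 8 stromal and endothelial markers 5 were called higher, where 8.47% were. Mean log2 levels were 5.56 to 5.61 against 7.05 to 7.55 for macrophage markers and 7.43 to 7.83 against 6.17 to 6.31 for stromal ones. In bulk samples this does not tell whether such cells or the RNA per cell differed. The part of these markers' cells in the changes of the 8 genes was not tested.

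**Figure D4:**
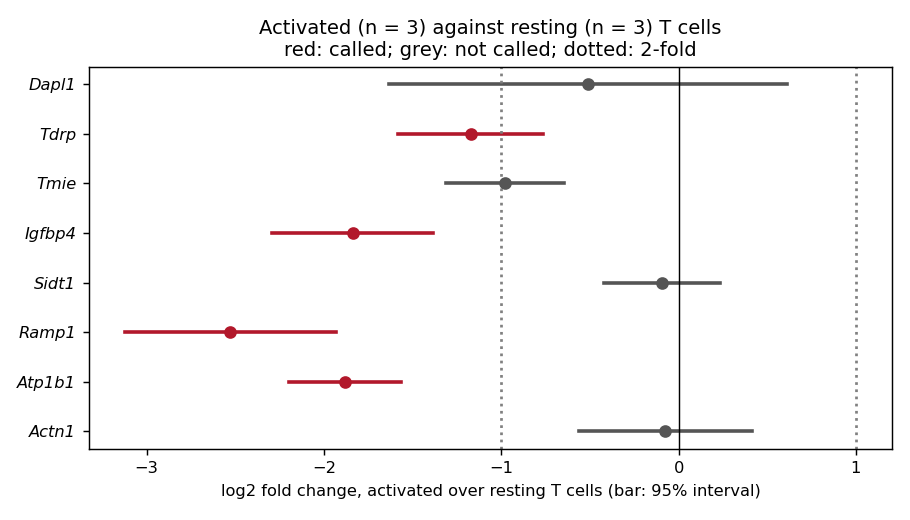
Log2 fold change of the 8 genes in activated over resting T cells (x axis, 3 samples each), with points for the estimate and bars for its 95% interval by limma; red marks called genes and dotted lines 2-fold. Igfbp4, Ramp1, Atp1b1 and Tdrp lie left of the 2-fold line, Tmie lies on it, and the bars of Dapl1, Sidt1 and Actn1 cross 0.

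The 8 genes were then set beside a list of 24 other genes of naive and quiescent T cells, of which 22 were on the array under 1 symbol and all 22 were tested. In lymphomas 14 of the 22 were called lower and 0 higher than in resting cells, where 7% of all tested genes were called lower, and 12 were called lower and 0 higher than in activated cells, where 8.47% of tested genes were called lower and 7.07% higher. At an unadjusted p under 0.05, 18 of the list were lower and 0 higher than in resting cells, and 16 lower and 0 higher than in activated cells. The share of all tested genes at this unadjusted threshold was not counted, for this list or those below, and the shares given are for calls. The median log2 change of the list was -2.67 against resting and -2.44 against activated cells. Ccr7, the receptor that guides naive T cells into lymph nodes, had intensities of 3.79, 177 and 1348 as lowest, median and highest of the lymphomas, against 11405, 9142 and 9165 in the activated and 10813, 10104 and 11256 in the resting samples. Its log2 change was -6.24 ± 1.09 against activated (limma adjusted p = 0.00237) and -6.36 ± 1.09 against resting cells (limma adjusted p = 0.00188), where 4 lymphomas at the floor make it depend on the floor. Lef1, a transcription factor of naive T cells, changed by -3.65 ± 0.61 against activated (limma adjusted p = 0.00189) and by -3.87 ± 0.61 against resting cells (limma adjusted p = 0.00109). Satb1, a chromatin organiser, changed by -5.40 ± 1.01 (limma adjusted p = 0.00325) and -4.68 ± 1.00 (limma adjusted p = 0.00731) in the same comparisons. Leaving out any 1 resting sample brought the 14 calls to 7 or 8, and leaving out any 1 activated sample brought the 12 calls to 7.

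On activation few genes of the same list were called. By limma 1 of its 22 genes was lower and 0 higher (9 lower and 5 higher at an unadjusted p under 0.05), with 12.7% of all tested genes called in either direction, and its median log2 change was -0.24. The gene called was Il6ra, the interleukin 6 receptor, at -1.23 ± 0.19 (limma adjusted p = 0.00516). Without the 2-fold rule 7 of the 22 were lower at an adjusted p below 0.05, and those that were higher were not counted. Under that rule 3660 of the 11907 tested genes passed in either direction. The median log2 difference of the 8 genes was -1.08 in this comparison. Of 19 genes of effector and memory T cells on the array, 8 were called higher and 2 lower on activation, where 8.47% and 4.26% of tested genes were, among them Gzmb, a granzyme, at 4.71 ± 0.45 (limma adjusted p = 9.63e-04). In lymphomas 4 of the 19 were called higher and 0 lower than in resting cells by limma (5 higher and 2 lower at an unadjusted p under 0.05), where 7.14% of tested genes were called higher, among them S100a4 at 3.40 ± 0.99 (limma adjusted p = 0.0306) and Anxa2 at 2.21 ± 0.51 (limma adjusted p = 0.0104). The call of S100a4 was lost when any 1 resting sample was left out (adjusted p 0.0965 to 0.114), and that of Anxa2 without resting sample 3 (adjusted p = 0.0647) or over lymphomas 3, 6 and 7 alone (adjusted p = 0.0628). Leaving out any 1 resting sample brought the 4 calls to 0 or 1, and leaving out the lymphomas of low Cd3e gave 8. Against activated cells 2 of the 19 were called higher and 2 lower in lymphomas, where 7.07% and 8.47% of tested genes were. The median log2 change of the list was then -0.64, against 0.47 in the comparison with resting cells and 0.75 on activation. Leaving out any 1 activated sample brought the 2 higher calls to 0 or 1.

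**Figure D5:**
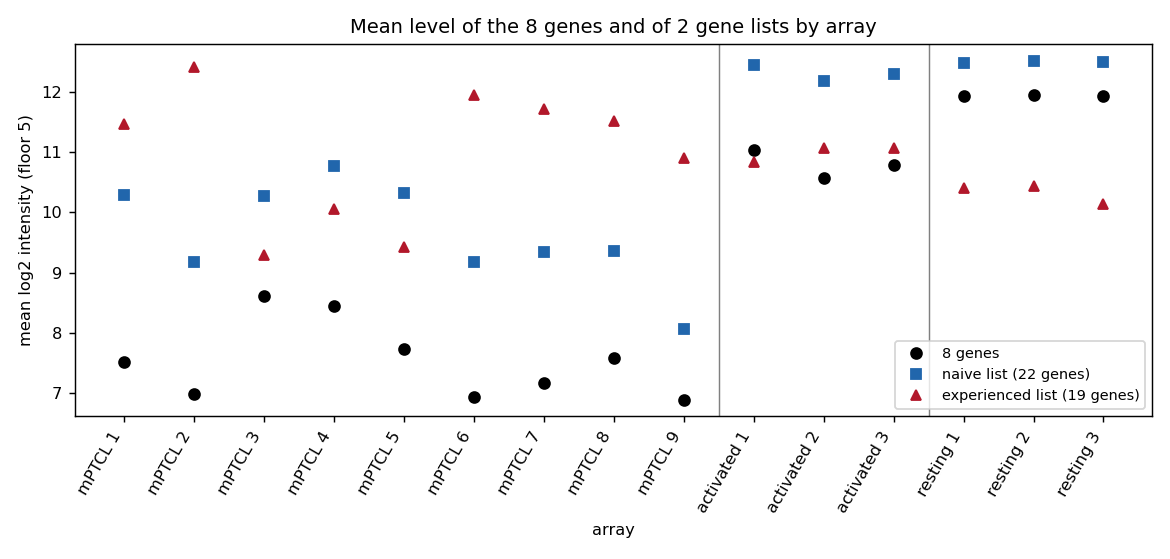
Mean log2 intensity (y axis, floor 5) of the 8 genes, of the 22 naive T cell genes and of the 19 effector and memory genes in each array (x axis; lymphomas, activated and resting T cells from left). The 8 genes lie at 6.90 to 8.61 in lymphomas, 10.57 to 11.03 in activated and 11.92 to 11.94 in resting cells, while the naive list is at 8.06 to 10.76, 12.17 to 12.44 and 12.47 to 12.51 in the same groups.

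Relatives and binding partners of the 8 genes were counted from a further list of 38 genes, 35 of them on the array and 22 tested. Against resting cells 5 of the 22 were called lower and 0 higher in lymphomas by limma (7 lower and 1 higher at an unadjusted p under 0.05), beside 7% of all tested genes called lower and 7.14% higher, and the list's median log2 change was -0.47. Leaving out any 1 resting sample brought the 5 calls to 2, with those of Ramp3, Igf2r and Pdlim1 lost. For Ramp1, the partner receptor Calcrl had intensities of 4.78, 75.6 and 182 as lowest, median and highest of the lymphomas, against 437, 374 and 422 in the activated and 711, 801 and 786 in the resting samples. It was below every normal sample in each lymphoma, also in those with high Ramp1. Its log2 change was -2.51 ± 0.52 against activated (limma adjusted p = 0.00538) and -3.41 ± 0.52 against resting cells (limma adjusted p = 8.70e-04). Ramp3, a relative that also pairs with Calcrl, changed by -2.52 ± 0.78 against resting cells (limma adjusted p = 0.0405), a call that was also lost without lymphoma 1, 2, 3, 7, 8 or 9 (adjusted p 0.0502 to 0.0599).

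For Atp1b1, the related pump subunit Atp1b3 changed by -1.63 ± 0.33 in lymphomas against resting cells (limma adjusted p = 0.00535). Its intensities were 3567 to 12796 in lymphomas, 10253 to 13135 in activated and 18057 to 20383 in resting cells. Its call was lost over lymphomas 3, 6 and 7 alone (adjusted p = 0.0544). It was below all resting samples in every lymphoma, unlike Atp1b1, which was within or above the resting range in lymphoma 8. For Actn1, its nearest relative Actn4 differed by -0.04 ± 0.23 against resting cells (limma adjusted p = 0.915), and its sign turned under several settings. Vcl, which codes for vinculin, an actin-linked protein that binds alpha-actinin, went the other way: it had intensities of 85.7, 1792 and 3550 as lowest, median and highest of the lymphomas, against 403, 613 and 433 in the activated and 222, 237 and 193 in the resting samples. It was above all resting samples in 8 of 9 lymphomas, lymphoma 3 being below them, and differed by 2.39 ± 0.86 against resting cells without a call (limma adjusted p = 0.0705, or 0.00238 without lymphoma 3). On activation Vcl rose by 1.13 ± 0.22 on the log2 scale (limma adjusted p = 0.0111), a call lost with median centring (0.86) and without activated sample 2 (0.95), as the change is then under 2-fold. The actin-binding partner Pdlim1 changed by -2.22 ± 0.52 (limma adjusted p = 0.0114), and by -0.88 without a call over the mean of its probe sets (adjusted p = 0.0731). For Sidt1, the relative Sidt2 differed by -0.98 ± 0.45 (limma adjusted p = 0.151). For Dapl1, the relative Dap differed by 0.94 ± 0.46 in lymphomas against resting cells (limma adjusted p = 0.172), while in activated cells it rose by 1.57 ± 0.15 on the log2 scale (limma adjusted p = 9.15e-04). For Igfbp4, the receptor Igf2r changed by -2.61 ± 0.72 (limma adjusted p = 0.0253, or 0.0662 over lymphomas 3, 6 and 7 alone), and the receptor Igf1r differed by -0.68 ± 1.21 (limma adjusted p = 0.728), with 6.01 to 2364 units over the lymphomas. The ligand Igf2 was at 275 to 5449.6 in lymphomas 3, 4, 6, 7 and 9, at 11.4 to 57.7 in the other 4, at 7.36 to 44.0 in activated and at 18.0 to 54.5 in resting cells, and differed by 2.91 ± 1.63 against resting cells without a call (limma adjusted p = 0.232, or 0.00994 over lymphomas 3, 6 and 7 alone). The lymphoma values of Vcl and Igf2 were chosen for naming after they were seen. The 5 hair cell partners of Tmie were on the array but none had enough signal to be tested, with a mean log2 level of 5.07 to 5.51 in lymphomas, 5.47 to 5.84 in activated and 5.18 to 5.41 in resting cells.

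Within the 8 genes, likeness to the rest was uneven. Over the 15 arrays, the correlation of each gene with the mean of the other 7 was 0.92 to 0.95 for Dapl1, Tdrp, Tmie, Igfbp4 and Sidt1, 0.77 for Actn1, 0.36 for Atp1b1 and -0.06 for Ramp1. These values share the split between lymphomas and normal cells and are given as a description. Among 11256 other tested genes, those most like the mean of the 8 were Pak2, a kinase of the actin cytoskeleton, at r = 0.984, Arih1, a ubiquitin ligase, at 0.972, Cd5, a receptor that dampens T cell receptor signals and is also in the T cell marker list, at 0.971, Gabrr2, a subunit of GABA receptors, at 0.969, Dgka, a diacylglycerol kinase, at 0.968, and Dgcr2 at 0.961. Cd5 had log2 levels of 5.69 to 10.02 in lymphomas, 12.18 to 12.43 in activated and 12.45 to 12.70 in resting cells.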

How the data were processed

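Total RNA of 15 samples was measured on Affymetrix mouse arrays, and groups came from the labels. The deposited values are linear intensity, which the authors computed with MAS5 in Expression Console (version 1.1 for the lymphomas), per the submitters' processing notes. The 2% trimmed mean was 500 in each array, as tested on the values. Detection calls were not used, and the number of arrays limits the precision.

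Values under 32 were raised to 32 before log2. A single gene symbol was annotated to 34958 probe sets, several to 932 and none to 9211. For the 18193 genes the brightest probe set on average was kept, and 11907 reached 100 in 3 or more arrays, which was required for testing. Tests used limma 3.58.1 (lmFit, eBayes with a trend) in R 4.3.3, fitted to the 2 groups compared and adjusted by Benjamini-Hochberg over all genes. The fits were tested on simulated data. Promoters and gene positions came from RefSeq, GRCm38.p6. Tdrp has no promoter shown. Named genes were the 8 genes, at most 4 called genes with the largest changes per list and comparison, the 6 genes most like the mean of the 8, and a fixed set of relatives and markers. The members and lists were chosen with earlier results of these data known. Alternatives were floors of 16 and 64, value plus 16, filters, quantile normalisation, median centring, means of probe sets, every probe set, all arrays in 1 fit, no trend, a replicate block, and leaving out arrays. The deleted p53 gene is not analysed here.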

Additional observations from a re-analysis of the deposited data

Results flagged for a closer look

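In Tdrp, lymphoma 6 stood apart from the other 8 lymphomas, at 6.44 on the log2 scale (intensity 86.6) where the next was at 5.17, so that the gap took up 0.885 of the whole range. In the second Tmie probe set, 1443964_at, lymphoma 5 was at 5.29 and the other 8 were at the floor, so that the gap was the whole range (1). Of the 24 probe sets, 21 varied among the lymphomas and were examined in this way, and 2 were picked out. The usual chance rate of about 1 in 20 does not apply to either, since the other lymphomas lie at the floor in 8 of 8 cases for 1443964_at and in 6 of 8 for Tdrp, and a single value above a shared floor gives a gap of the whole range by construction. Both values lie close to the floor, far below every normal sample.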

How the results depend on the processing

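The 4 members called lower in activated cells were 4 or 5 under every alternative but 1, the fit of all 15 arrays, which gave 0. That fit gave 396 calls over all genes and 0 in the naive list, against 1515 and 1. Here and below, counts over all genes are of calls in either direction, and those of the naive and partner lists are of lower calls only. Adjusted p alone gave 3660 and 7, median centring gave 2 in the naive list, and fitting every probe set gave 2624 over all genes. Same-numbered activated and resting samples did not deviate together (correlations of -0.0117, 0.0513 and -0.00961). With 3 samples per group these values cannot exclude that the numbers pair samples, and the labels do not say. With a replicate block there were 1435 calls over all genes, 4 among the members and 1 in the naive list. Leaving out 1 sample gave 1266 to 1510 calls over all genes. Against resting cells, the lymphomas gave 1683 calls in the main setting, 3482 probe sets with every probe set, 2618 without the lymphomas of low Cd3e, and 802 to 1884 without 1 sample. The naive list gave 7 to 16 calls without 1 sample and the partner lists 2 to 6, with 3 when no filter was set. Against activated cells the counts were 1851, 4094, 2981 and 954 to 2190 in the same order, and 7 to 15 for the naive list without 1 sample. The cause of these shifts was not tested. In that comparison median centring gave a median log2 change of all genes of 0.28, against -0.07, and moved the share of lower calls to 25.7%, against 54.5%.

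Signs turned in activated against resting cells for Dapl1 (0.071 without activated sample 2, with -0.80 to 0.071 over samples left out), Sidt1 (0.11 with the mean of probe sets, 0.021 without resting sample 2, with -0.19 to 0.021 over samples left out), Actn1 (0.33 with the mean of probe sets, 0.16 without activated sample 2, with -0.21 to 0.16 over samples left out), Actn4 (-0.044 with median centring) and Lef1 (0.026 with the mean of probe sets). They turned in lymphomas against resting cells for Actn4 (0.029 with median centring, 0.038 without resting sample 2, 0.013 without lymphoma 3, 0.027 without lymphoma 4, -0.098 to 0.038 over samples left out, 0.17 without the lymphomas of low Cd3e). They turned against activated cells for Actn4 (0.073 with median centring), Cd3e (0.16 without the lymphomas of low Cd3e) and Cd44 (0.0066 with median centring). Differences of Dapl1, Tdrp and Tmie in lymphomas move with the floor, since most arrays lie on it: against resting cells a floor of 16 gave -6.86, -7.29 and -7.30 and a floor of 64 gave -4.87, -5.86 and -5.30. Alternatives without lymphomas of high B cell or neutrophil markers or low Cd3e, and those of the pairs, of the T cell marker and effector lists and of Vcl and Igf2 against resting cells, were chosen after seeing the data.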
